A study of Mus musculus with 6 samples.

Results

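The genes described here copy DNA before a cell divides or supply the nucleotides for it. They are 35 named genes of 18193 that the array annotation names singly. Grouping was by role in replication and not by a threshold on these arrays. The genes were chosen, however, with earlier results of these data known. Transcripts came from the whole ovary of female mice, 8 months old, either without the receptor for follicle-stimulating hormone (FORKO, made by deletion of all variants of the receptor) or wild-type (WT). Both groups came from heterozygote breeding on the 129T2 svEmsJ background, with no treatment named, and for each RNA sample both ovaries were pooled. There were 3 WT and 3 FORKO samples, 1 array each (Affymetrix Mouse Genome 430 2.0). The deletion is not limited to a cell type, the tissue is the whole organ, and the labels do not say how many mice gave each sample, so p-values measure only the spread between these samples. For the FORKO samples, the description and treatment texts name wild-type mice, while their titles and genotype field name FORKO; the titles were followed.

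DNA replication begins when the origin recognition complex, with CDC6 and CDT1, loads the ring of MCM2 to MCM7 proteins onto DNA. CDC45 and the GINS complex turn the ring into a moving helicase, primase and polymerases copy the strands, and a sliding clamp, PCNA, holds the polymerases in place. Many of these genes are transcribed as cells enter S phase, under E2F transcription factors. In the ovary, the granulosa cells of growing follicles are a known site of such division, and follicle-stimulating hormone is known to promote it.

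The deleted gene was read first. Fshr, which encodes the receptor, read 99.6, 59.4 and 119 in WT and 1.20, 11.2 and 11.7 in FORKO, in the order of replicates 1, 2 and 3, as in every such sentence that follows (log2 change -2.90 ± 0.39, SE; limma adjusted p = 0.0102). The groups did not overlap. The sources used here do not place this probe set inside or outside the deletion. Leaving out WT replicate 1 or 3 gave adjusted p values of 0.0526 and 0.0598. Signals are scaled array intensities, and a log2 change is the FORKO mean minus the WT mean of log2(signal + 5.73); for dim probe sets this scale makes changes look smaller. Across the 22506 probe sets bright enough to test, 0.595% were lower and 1.06% higher in FORKO at a limma adjusted p under 0.05, so that 64.0% of calls were higher. That share was 50.6% with arrays scaled to the same median and 84.0% with arrays scaled to bacterial spikes, which moved the median of all probe sets from -0.01 to 0.15 on the log2 scale. Arrays give no read counts, and their number limits the precision. FORKO replicate 1 stood apart: its log2 signals correlated at 0.954 and 0.955 with FORKO replicates 2 and 3, which correlated at 0.969 with each other. Where it moved the change of a named replication, S phase or mitosis gene by over 1.5 times, the value without it follows.

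The replication genes had lower mean signals in FORKO than in WT ovaries, by moderate amounts, and none passed the test over all probe sets. Of 35 genes, 34 were bright enough to test. Each of the 34 had a negative change, against 51.2% of all probe sets tested, and the median change was -0.52 on the log2 scale, against -0.01 over all probe sets. At a limma adjusted p under 0.05, 0 members were lower and 0 higher; the lowest adjusted p was 0.0934, that of Cdt1. At an unadjusted p under 0.05, 17 of the 34 were lower, against 6.93% of all probe sets, and 0 were higher. Each FORKO array was lower than each WT array for 20 of the 34, against 10.4% of all probe sets. Since the genes were chosen with earlier results of these data known, these counts are a description and not a test. A gene without overlap has an exact two-sided permutation p of 0.1, the smallest that 3 against 3 arrays can give. Because a filter on dim signals can keep a gene through its brighter group, the counts were also taken without it. All 35 genes then read lower on average, the median change was -0.52, 19 genes had an unadjusted p under 0.05, against 4.91% of all probe sets, and 21 had no overlap, against 7.70%. In RNA from a whole organ, fewer dividing cells and less of a transcript in each cell cannot be told apart.

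Scaling to the bacterial spikes, chosen after seeing the data, gave a median change of -0.36 for the members against 0.15 for all probe sets. In that setting 33 of 34 members were negative, 7 were lower at an unadjusted p under 0.05, against 2.61% of all probe sets, and 11 did not overlap, against 3.67%. A scale factor per array shifts the members and all probe sets alike. With the replicate number as a block, 26 of the 34 had an unadjusted p under 0.05 in the paired fit, against 9.55% of all probe sets, and the lowest adjusted p was 0.0556.

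**Figure D1:**
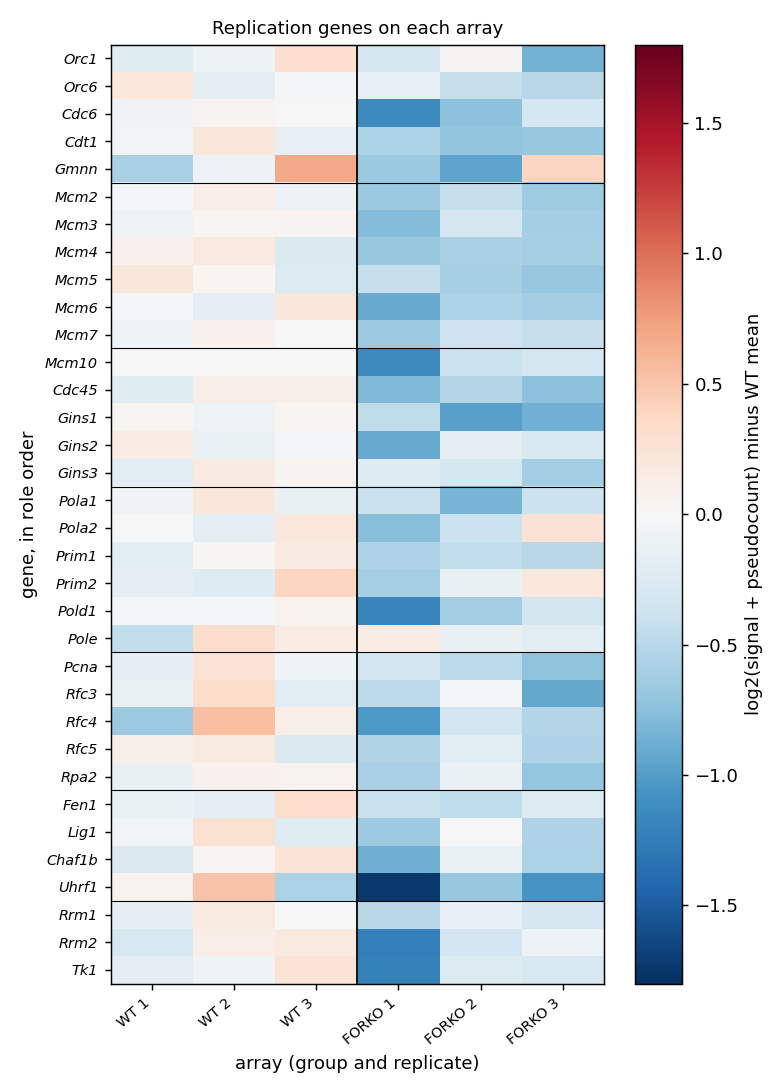
Each row is a replication gene past the dim filter and each column an array; colour gives log2(signal + 5.73) minus the mean of the WT arrays for that gene, with horizontal lines between the role groups. Blue fills most of the FORKO columns: FORKO replicates 1, 2 and 3 lay below the lowest WT array for 32, 24 and 28 of the 34 genes.

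The FORKO arrays were not low to the same degree. The members' median against the WT mean was -0.65, -0.39 and -0.54 on FORKO replicates 1, 2 and 3, and -0.08, 0.07 and 0.04 on WT replicates 1, 2 and 3. FORKO replicate 1 was the lowest of the 6 arrays for 20 members, replicate 2 for 5 and replicate 3 for 8. The median of all probe sets on these 3 arrays was -0.04, 0.02 and 0.01. Without FORKO replicate 1 the members' median change was -0.45, 33 of 34 were negative, 16 had an unadjusted p under 0.05, against 7.01% of all probe sets, and Gins1 fell at a limma adjusted p of 0.0194. The change of 8 of the 34 members moved by over 1.5 times without that array, and that of 14 with 1 or another of the 6 arrays left out, as described gene by gene for those that turn on an array.

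The upstream sequence of genes that read lower together can be set beside these values. RefSeq windows (GRCm38.p6) of 300 bases, 250 before and 50 after the annotated start, were given for 29 of the 35 genes, 34 windows in all. They were searched on both strands for the E2F consensus in its 4 spellings (TTTCCCGC, TTTCGCGC, TTTGCCGC and TTTGGCGC), for the CCAAT box (CCAAT) and for the CHR element of cell cycle genes (TTTGAA). An E2F spelling was present in 13 of 34 windows, or 38.2%, against 2.26% of all 32851 windows and 3.95% of windows of genes with a probe set past the dim filter. CCAAT was present in 58.8% of the members' windows, against 37.4% of all and 37.3% of windows of genes past the dim filter. TTTGAA was present in 11.8%, against 17.9% of all and 12.0% of windows of genes past the dim filter. The median GC content was 58.0% in the members' windows, 52.7% in all windows and 60.7% in those of genes past the dim filter. In the members' windows, 1 E2F match shared a base with a CCAAT match. The 13 genes with an E2F match had changes of -1.16 to -0.37 and a median of -0.56, and 10 of them had no overlap. The 15 tested genes whose windows held none had changes of -0.69 to -0.30 and a median of -0.52, and 7 had no overlap.

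Shown here are the 250 bases before the start of the MCM helicase genes that have a window, since all 6 MCM2 to MCM7 genes lacked overlap, and of Cdc6, Pola1 and Uhrf1, 3 of the 4 other members that lacked overlap and have an E2F match before the start (Gins3 is not shown). Capitals mark E2F matches on either strand. The stretches lie at chr6:88898781-88899030 (minus strand) for Mcm2, chr1:20820313-20820562 (minus) for Mcm3, chr8:75109259-75109508 (plus) for Mcm5, chr1:128359706-128359955 (minus) for Mcm6 and chr5:138171884-138172133 (minus) for Mcm7. Those of the others lie at chr11:98907901-98908150 (plus) for Cdc6, chrX:93632156-93632405 (minus) for Pola1 and chr17:56304063-56304312 (plus) for Uhrf1.
Mcm2: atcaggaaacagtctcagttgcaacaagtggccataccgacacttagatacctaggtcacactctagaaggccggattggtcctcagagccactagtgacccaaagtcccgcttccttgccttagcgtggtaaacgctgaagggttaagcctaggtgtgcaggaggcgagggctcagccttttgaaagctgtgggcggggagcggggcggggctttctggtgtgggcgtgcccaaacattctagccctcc
Mcm3: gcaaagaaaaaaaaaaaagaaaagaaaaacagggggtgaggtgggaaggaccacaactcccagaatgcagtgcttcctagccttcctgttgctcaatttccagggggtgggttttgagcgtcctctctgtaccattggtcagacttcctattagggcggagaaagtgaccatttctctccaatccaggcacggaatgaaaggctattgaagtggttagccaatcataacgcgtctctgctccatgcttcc
Mcm5: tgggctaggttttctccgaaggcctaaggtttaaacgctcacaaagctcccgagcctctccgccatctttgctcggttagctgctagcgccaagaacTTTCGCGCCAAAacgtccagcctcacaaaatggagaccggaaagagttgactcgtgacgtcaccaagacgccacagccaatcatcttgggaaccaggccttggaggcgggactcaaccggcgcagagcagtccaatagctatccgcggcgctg
Mcm6: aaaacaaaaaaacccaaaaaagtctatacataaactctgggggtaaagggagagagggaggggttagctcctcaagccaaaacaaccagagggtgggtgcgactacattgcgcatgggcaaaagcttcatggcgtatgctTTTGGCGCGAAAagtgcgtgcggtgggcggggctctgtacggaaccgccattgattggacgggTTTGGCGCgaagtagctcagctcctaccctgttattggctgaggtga
Mcm7: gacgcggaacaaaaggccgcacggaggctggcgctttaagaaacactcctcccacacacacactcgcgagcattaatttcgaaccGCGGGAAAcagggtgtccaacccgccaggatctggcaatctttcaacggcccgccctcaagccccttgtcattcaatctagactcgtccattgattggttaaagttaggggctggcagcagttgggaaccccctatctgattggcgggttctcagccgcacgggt
Cdc6: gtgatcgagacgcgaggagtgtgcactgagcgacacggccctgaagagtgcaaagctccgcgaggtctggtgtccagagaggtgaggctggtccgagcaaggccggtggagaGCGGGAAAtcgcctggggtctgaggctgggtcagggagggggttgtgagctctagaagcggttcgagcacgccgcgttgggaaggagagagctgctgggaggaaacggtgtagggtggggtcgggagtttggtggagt
Pola1: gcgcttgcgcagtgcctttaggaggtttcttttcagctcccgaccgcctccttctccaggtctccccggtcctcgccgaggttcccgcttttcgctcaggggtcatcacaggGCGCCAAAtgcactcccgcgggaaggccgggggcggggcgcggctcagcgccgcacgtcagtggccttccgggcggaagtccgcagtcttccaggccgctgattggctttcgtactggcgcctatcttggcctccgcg
Uhrf1: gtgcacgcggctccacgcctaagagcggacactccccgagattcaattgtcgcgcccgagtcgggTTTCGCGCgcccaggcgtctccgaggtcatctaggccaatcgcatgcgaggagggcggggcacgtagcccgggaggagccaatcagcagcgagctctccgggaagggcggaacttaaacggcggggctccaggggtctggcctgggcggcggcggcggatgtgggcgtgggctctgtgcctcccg
Mcm6 holds 3 matches in this stretch, 2 of which overlap, and Mcm5 holds 2 that overlap. Mcm7, Cdc6, Pola1 and Uhrf1 hold 1 each. Mcm3 has none before the start, but 2 within the 50 bases after it, where Mcm7 has 1 more; those bases are not shown. Mcm2 has no match in its window, and the stretch shown for Uhrf1 belongs to 1 of its 2 windows, the other of which has none, as has the other window of Mcm7. A match is a description of letters and not of binding.

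Among the genes that mark and license origins, the loading factors Cdc6 and Cdt1 were the 2 of 5 without overlap, against 10.4% of all probe sets. Cdt1, which brings the MCM ring to the origin, read 313, 373 and 291 in WT and 217, 195 and 199.6 in FORKO (log2 change -0.66 ± 0.17, SE; limma adjusted p = 0.0934). The FORKO arrays lay close together, and each was well below the lowest WT array. A dimmer Cdt1 probe set, 1424144_at, had a change of -0.37 without overlap (limma adjusted p = 0.396). Cdc6, the ATPase that works with CDT1, read 65.1, 70.8 and 68.2 in WT and 27.4, 38.4 and 53.3 in FORKO (-0.74 ± 0.24; limma adjusted p = 0.181). Here the FORKO arrays were spread, with replicate 1 lowest and replicate 3 nearest to WT, but did not overlap with WT. Gmnn encodes geminin, the inhibitor that binds CDT1 and blocks a second round of loading. It read 198, 278 and 482 in WT and 186, 152 and 394 in FORKO (-0.41 ± 0.38; limma adjusted p = 0.694). Its replicate 3 arrays were the highest in both groups, so that the groups overlapped, and its change ran from -0.81 to -0.07 with 1 array left out. The origin recognition subunits Orc1 and Orc6 overlapped between groups too, with changes of -0.37 and -0.36; Orc1 was dim, with WT and FORKO means of 23.9 and 17.6, and its change ran from -0.59 to -0.13 with 1 array left out.

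All 6 MCM helicase genes read lower in FORKO. In the brightest probe set of each, all 6 had an unadjusted p under 0.05, against 6.93% of all probe sets that were lower. None of these 6 probe sets overlapped between groups, against 10.4% of all probe sets with FORKO below WT. Their changes lay between -0.70 and -0.48. Mcm6 read 269, 243 and 319 in WT and 144, 184 and 178 in FORKO, which is 277 ± 38.7 in WT and 169 ± 21.4 in FORKO (mean ± SD, n = 3; log2 change -0.70 ± 0.18, SE; limma adjusted p = 0.102). Mcm4 read 545, 578 and 429.8 in WT and 319, 340.2 and 338 in FORKO (-0.62 ± 0.16; limma adjusted p = 0.108). Its FORKO arrays nearly coincided, while WT replicate 3 sat below the other WT arrays. Mcm2 read 122, 135 and 117 in WT and 76.5, 90.5 and 78.0 in FORKO (-0.58 ± 0.17; limma adjusted p = 0.147), with the highest FORKO array still below the lowest WT array. The others, Mcm3, Mcm5 and Mcm7, had log2 changes of -0.56, -0.57 and -0.48, at limma adjusted p values of 0.184, 0.153 and 0.151. On the FORKO arrays the group's medians were -0.67, -0.50 and -0.61, a narrower span than that of the nucleotide genes described further on.

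**Figure D2:**
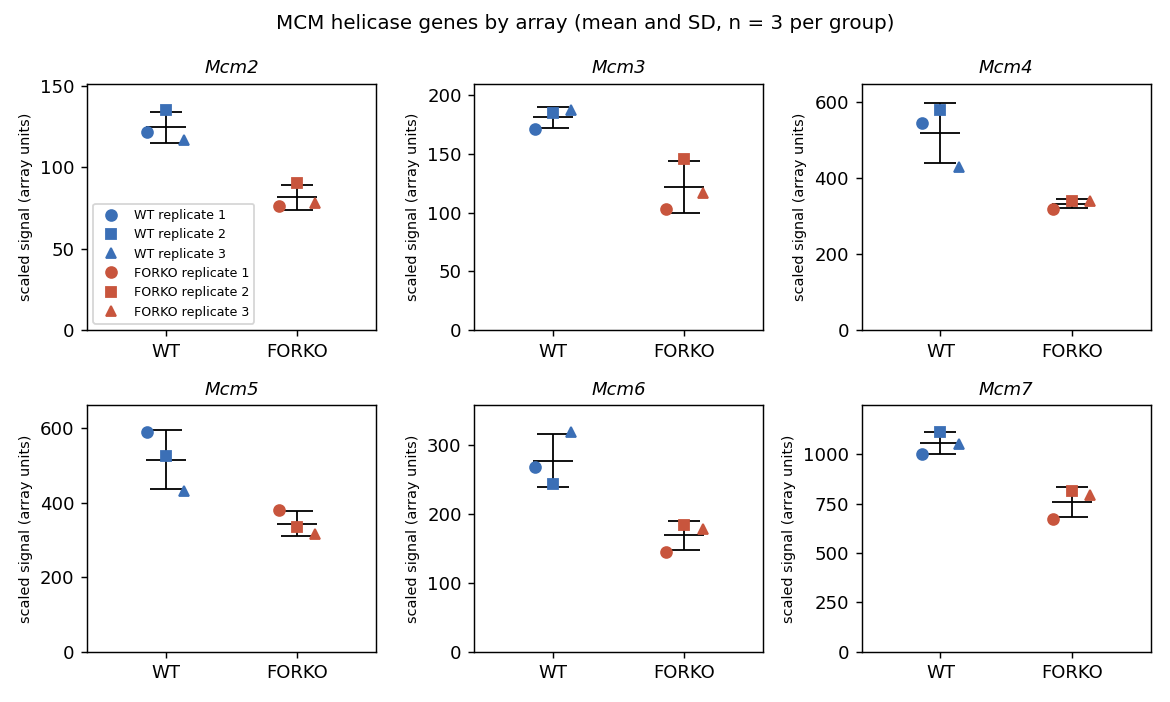
Scaled signal of the standing probe set of Mcm2 to Mcm7 on each array, with WT in blue, FORKO in red and the replicate by symbol; the long bar is the mean and the capped line the SD (n = 3 per group), and each vertical axis starts at 0. In each panel the 3 FORKO points lie below the 3 WT points, for Mcm7 at 671 to 813 against 1004 to 1115.

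Several MCM genes have further probe sets, and these differed in size and in overlap. Groups overlapped for Mcm4 1416214_at (log2 change -0.38) and for Mcm7 1416030_a_at (-0.43) and 1416031_s_at (-0.31). They did not overlap for Mcm2 1434079_s_at (-0.60), Mcm3 1426652_at (-0.33), Mcm5 1415945_at (-0.70) and Mcm7 1439269_x_at (-0.58). For Mcm3 the brightest probe set stood for the gene, but a dimmer one, 1426653_at, read 74.0, 75.2 and 67.3 in WT and 31.7, 30.9 and 34.6 in FORKO and passed (log2 change -1.03 ± 0.18, SE; limma adjusted p = 0.0271). Another Mcm3 probe set, 1449705_x_at, read 56.1, 91.6 and 80.5 in WT and 81.3, 84.5 and 54.2 in FORKO, with a change of -0.05 and overlapping groups. For Mcm6 the second probe set, 1416251_at, read 194, 233 and 199.6 in WT and 65.5, 122 and 106 in FORKO (-1.09 ± 0.23; limma adjusted p = 0.0541). Across the 35 genes, 22 further probe sets passed the dim filter, and 22 of 22 had a negative change, against 51.2% of all probe sets tested. Of the 22, 7 had an unadjusted p under 0.05, against 6.93% of all probe sets that were lower. An adjusted p under 0.05 was reached by 1, that of Mcm3. These probe sets read the same genes on the same arrays, so they are not independent of the counts above. Which part of a transcript each probe set reads is not given in the sources used here.

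Factors that fire licensed origins also read lower in FORKO without overlap, in 5 of 5 genes, against 10.4% of all probe sets. Gins1, a subunit of the GINS complex, had the largest change of them and read 115, 106 and 115 in WT and 80.1, 54.2 and 58.7 in FORKO (log2 change -0.76 ± 0.19, SE; limma adjusted p = 0.0967). In this gene FORKO replicate 1 was the highest FORKO array. Cdc45, the helicase partner of GINS, read 37.3, 48.3 and 47.8 in WT and 23.1, 29.0 and 24.1 in FORKO (-0.69 ± 0.22; limma adjusted p = 0.173). Mcm10, which helps to activate the helicase, read 51.7, 52.1 and 52.4 in WT and 20.3, 38.3 and 40.7 in FORKO (-0.62 ± 0.25; limma adjusted p = 0.296). Its WT arrays agreed to within 1 unit of signal, and FORKO replicate 1 lay far below the other FORKO arrays, without which the change was -0.35. The GINS genes Gins2 and Gins3 had changes of -0.45 and -0.39, with unadjusted p values above 0.05, and that of Gins2 was -0.22 without FORKO replicate 1. A dimmer Gins2 probe set, 1452881_at, had a change of -0.44 with overlapping groups.

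The primase and polymerase genes were uneven. Pold1, the catalytic subunit of the lagging-strand polymerase delta, read 115, 116 and 124 in WT and 48.9, 74.8 and 92.8 in FORKO (log2 change -0.72 ± 0.23, SE; limma adjusted p = 0.182). Pola1, the catalytic subunit of the polymerase that starts each new strand, read 119.9, 147 and 114 in WT and 93.9, 68.2 and 95.3 in FORKO (-0.54 ± 0.20; limma adjusted p = 0.243). Prim1, the small primase subunit, read 189, 223 and 241 in WT and 146, 158 and 151 in FORKO (-0.50 ± 0.17; limma adjusted p = 0.203). In their brightest probe sets, these 3 genes did not overlap between groups. Dimmer probe sets of Pold1 (1448187_at, log2 change -0.69) and Prim1 (1449061_a_at, -0.42) did overlap. The partner subunits overlapped in their brightest probe sets. Pola2 had a log2 change of -0.30 and Prim2 one of -0.17, and for both FORKO replicate 3 was above at least 1 WT array. Pole, the leading-strand polymerase, read 20.4, 38.6 and 33.5 in WT and 33.3, 26.9 and 25.7 in FORKO (-0.06 ± 0.26; limma adjusted p = 0.945), with its lowest value in WT. Without FORKO replicate 1 the change of Pola2 was -0.07 and that of Pole -0.16. The sign of Pole turned without WT replicate 2 (0.09) or 3 (0.0055) and with spike scaling (0.08), and that of Prim2 without FORKO replicate 1 (0.03) or WT replicate 3 (0.02).

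Genes of the clamp, its loader and single-strand binding had similar changes but more overlap. Pcna, the sliding clamp, read 889, 1190.4 and 952 in WT and 791, 718 and 602 in FORKO (log2 change -0.52 ± 0.17, SE; limma adjusted p = 0.195) and was the member of this group without overlap. Rfc4, a subunit of the loader that opens the clamp, read 56.3, 136 and 99.5 in WT and 41.9, 71.4 and 61.8 in FORKO (-0.64 ± 0.31; limma adjusted p = 0.386). Its WT arrays were spread more than 2-fold, so that WT replicate 1 lay below 2 of the FORKO arrays, and the change ran from -0.96 (WT replicate 1 left out) to -0.36 (WT replicate 2 left out). Rfc3, another loader subunit, read 67.8, 94.5 and 63.6 in WT and 51.9, 72.8 and 36.3 in FORKO (-0.47 ± 0.26; limma adjusted p = 0.453), and FORKO replicate 2 was above WT replicates 1 and 3. Its change was -0.31 without WT replicate 2 and -0.25 without FORKO replicate 3. Rfc5 had a log2 change of -0.43 and Rpa2, a subunit of the protein that coats single-stranded DNA, one of -0.47, both with FORKO replicate 2 inside the WT range. FORKO replicate 2 was below the lowest WT array for 1 of these 5 genes, against 5 for replicate 1 and 4 for replicate 3.

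Uhrf1 had the largest change of the members. It encodes the protein that brings the maintenance DNA methyltransferase to newly copied DNA, and it read 182, 250.2 and 115 in WT and 48.3, 106 and 80.2 in FORKO (log2 change -1.16 ± 0.32, SE; limma adjusted p = 0.126). The spread among WT arrays was more than 2-fold, yet each FORKO array was lower than each WT array. Without FORKO replicate 1 the change of Uhrf1 was -0.87, smaller than that of Gins1 (-0.92). Chaf1b, a subunit of the chromatin assembly factor that places histones behind the fork, read 38.3, 48.2 and 56.6 in WT and 23.0, 42.8 and 30.0 in FORKO (-0.52 ± 0.25; limma adjusted p = 0.385). Lig1, which seals lagging-strand fragments, read 147, 186 and 131 in WT and 94.7, 154 and 102 in FORKO (-0.40 ± 0.23; limma adjusted p = 0.465). In both, FORKO replicate 2 lay inside the WT range. The change of Chaf1b was -0.35 without FORKO replicate 1, and that of Lig1 was -0.26 without WT replicate 2 and -0.61 without FORKO replicate 2. Fen1, the nuclease that trims those fragments, did not overlap but had a smaller change of -0.37, or -0.22 without WT replicate 3. A dimmer Fen1 probe set, 1421731_a_at, had a change of -0.12 with overlapping groups.

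Each of the 3 tested genes for nucleotide supply had its lowest value on FORKO replicate 1. Tk1, thymidine kinase, read 56.0, 60.7 and 77.2 in WT and 24.4, 53.1 and 51.2 in FORKO (log2 change -0.58 ± 0.28, SE; limma adjusted p = 0.380). Rrm2, the regulated subunit of ribonucleotide reductase, read 183, 245 and 256 in WT and 92.5, 176 and 210.1 in FORKO (-0.56 ± 0.29; limma adjusted p = 0.410). In both, FORKO replicate 1 was far below the other FORKO arrays, which lay near or within the WT range. Without it the changes were -0.27 for Tk1 and -0.22 for Rrm2. The large subunit, Rrm1, read 263, 333 and 298 in WT and 208, 268 and 239.9 in FORKO (-0.32 ± 0.17; limma adjusted p = 0.453). Over these 3 genes the medians on FORKO replicates 1, 2 and 3 were -1.21, -0.25 and -0.29. Tyms, thymidylate synthase, was below the dim filter and was not tested. Its standing probe set read 20.2, 20.0 and 14.0 in WT and 11.3, 13.9 and 12.5 in FORKO, and a probe set annotated to Tyms together with another gene was not used.

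**Figure D3:**
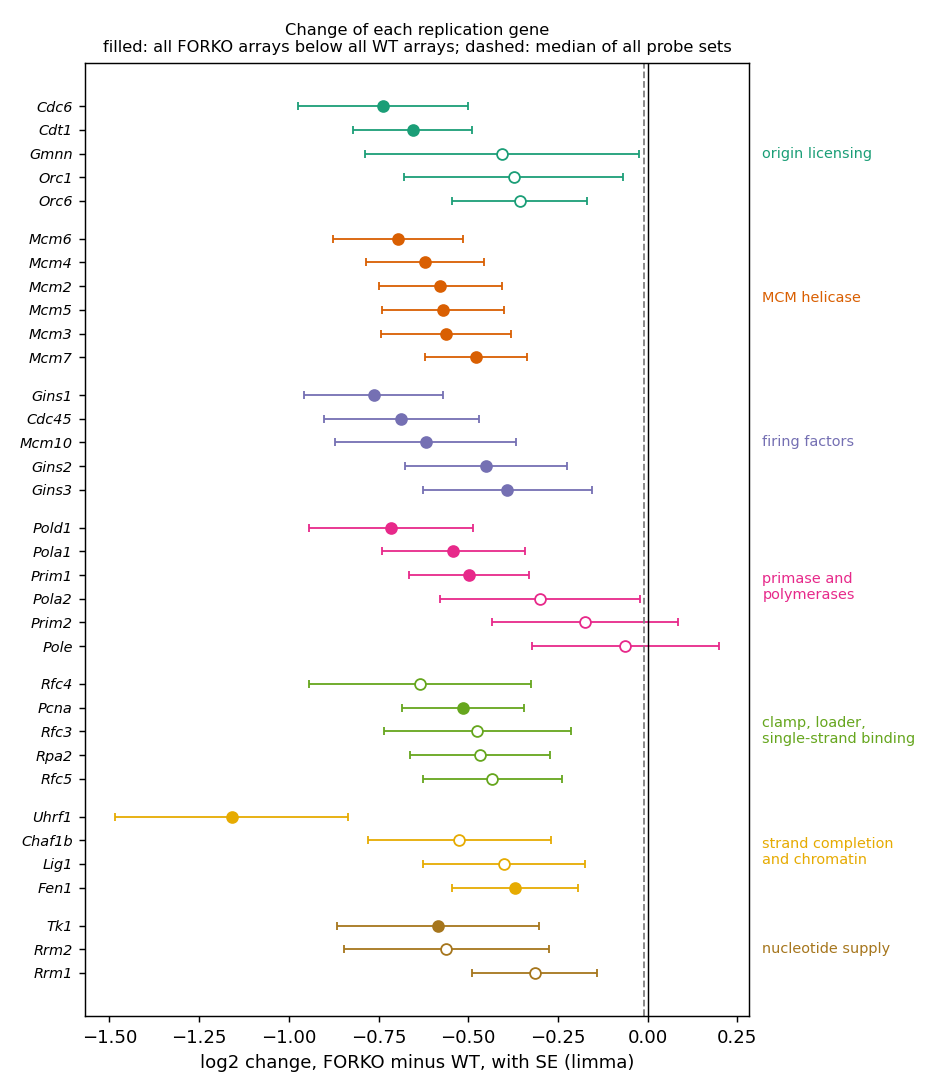
Log2 change of each tested replication gene, FORKO minus WT, with its limma SE, grouped by role; filled points are genes with all FORKO arrays below all WT arrays, and the dashed line is the median of all probe sets, -0.01. The points run from -1.16 for Uhrf1 to -0.06 for Pole, and 20 of 34 are filled.

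A wider list of 51 replication genes outside the 35 was less one-sided. It was set out by role and not by change, but also with earlier results of these data known. Of these, 48 had a probe set and 46 were tested: 35 changes were negative and 11 positive, and the median was -0.24. Ctps, which makes cytidine triphosphate, fell from 431, 512 and 522 in WT to 247, 264 and 237 in FORKO (log2 change -0.95 ± 0.16, SE; limma adjusted p = 0.0202). It was the 1 gene of the list that passed, and it did not pass without WT replicate 1, 2 or 3 or FORKO replicate 3 (limma adjusted p 0.0523, 0.101, 0.0945 and 0.0742) or with spike scaling (0.0615). The next largest changes were those of Top2a, the topoisomerase that untangles copied chromosomes, Dbf4, the activator of the origin-firing kinase, and Rnaseh2a, which removes RNA from DNA. Top2a read 279.9, 458 and 360.2 in WT and 110.2, 267 and 256 in FORKO (-0.85 ± 0.32; limma adjusted p = 0.263). FORKO replicate 1 was far below the others, and without it the change was -0.45, smaller than those of Dbf4 (-0.76) and Rnaseh2a (-0.73). Dbf4 read 132, 191 and 105 in WT and 69.8, 79.2 and 80.3 in FORKO (-0.82 ± 0.23; limma adjusted p = 0.121), without overlap. Rnaseh2a read 234, 630.0 and 383 in WT and 205, 254 and 207 in FORKO (-0.78 ± 0.31; limma adjusted p = 0.272), with WT replicate 1 below FORKO replicate 2.

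By role, the 7 genes of fork protection and completion were all negative, with a median of -0.59 and 5 at an unadjusted p under 0.05, while the 10 further polymerase and clamp loader genes had a median of -0.21 and 1 such gene. Across the list, 16 genes were lower and 1 higher at an unadjusted p under 0.05, against 6.93% lower over all probe sets, and 17 of the 46 had all FORKO arrays below all WT arrays, against 10.4%. The gene that was higher was Samhd1, which breaks down deoxynucleotides. It read 273, 243 and 252 in WT and 538, 297 and 348 in FORKO (0.57 ± 0.22; limma adjusted p = 0.269), opposite in direction to Dut. Its FORKO replicate 1 was the highest array, the one with the highest macrophage and lymphocyte marker sums, and without it the change was 0.33; the part of those markers was not tested. Dut, which removes dUTP, read 498, 441 and 360.3 in WT and 210.2, 282 and 262 in FORKO (-0.77 ± 0.19; limma adjusted p = 0.0831). Dnmt1, the methyltransferase that UHRF1 recruits, read 475, 411 and 355 in WT and 237, 271 and 249.8 in FORKO (-0.69 ± 0.17; limma adjusted p = 0.0831), without overlap. Samhd1, Dut and Dnmt1 were chosen after their values were seen.

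Regulators of S phase entry and genes of mitosis were read beside the members, on the same arrays. Of 37 tested, 0 passed limma's test, and 9 had an unadjusted p under 0.05, all lower, against 6.93% of all probe sets. The 11 cyclin and kinase genes of G1/S and S phase had a median change of -0.19, with 8 negative and 3 positive. The positive ones were Ccnd1 (0.42, without overlap), Ccnd2 (0.36) and Cdk6 (0.04). Without FORKO replicate 1 the change of Ccnd1 was 0.25. Ccne2, the cyclin E2 that drives entry into S phase, read 110.3, 158 and 94.5 in WT and 30.1, 66.0 and 42.8 in FORKO (log2 change -1.31 ± 0.28, SE; limma adjusted p = 0.0561), and passed in the paired fit with the replicate block (limma adjusted p = 0.0182) and without FORKO replicate 1 (0.0336). The mitotic kinase gene Bub1 read 66.2, 130.4 and 88.2 in WT and 13.4, 58.1 and 47.7 in FORKO (-1.27 ± 0.42; limma adjusted p = 0.200). It passed with the replicate block (limma adjusted p = 0.0400), and without FORKO replicate 1 its change was -0.74. Bub1b, of the same checkpoint, read 217, 248 and 236 in WT and 49.0, 222 and 159 in FORKO (-0.91 ± 0.43), and the kinase gene Ttk read 25.7, 42.5 and 37.2 in WT and 7.54, 18.6 and 27.0 in FORKO (-0.87 ± 0.35). For Bub1b, FORKO replicate 2 lay inside the WT range, replicate 3 below it and replicate 1 far below it. Without replicate 1 the change was -0.30 for Bub1b and -0.51 for Ttk. Of the E2F genes, E2f1, E2f5, E2f7 and E2f8 had no overlap, with changes of -0.42, -0.16, -0.58 and -0.61. Without FORKO replicate 1 those of E2f1, E2f7 and E2f8 were -0.18, -0.34 and -0.39. E2f2 and E2f3 had changes of -0.10 and -0.05, which turned to 0.08 and 0.16 without it, and the median of 12 E2F and retinoblastoma genes was -0.13. These 6 E2F genes were chosen after their values were seen.

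The 14 tested mitosis genes had a median of -0.59, near that of the 34 replication genes, but spread differently over the arrays. Their medians on FORKO replicates 1, 2 and 3 were -1.61, -0.10 and -0.27, and replicate 1 was the lowest of the 6 arrays for 14 of 14. The groups did not overlap for 3 of the 14, against 10.4% of all probe sets. Without FORKO replicate 1 the median was -0.18 for mitosis and -0.45 for the replication genes. The difference between these lists was not tested.

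**Figure D4:**
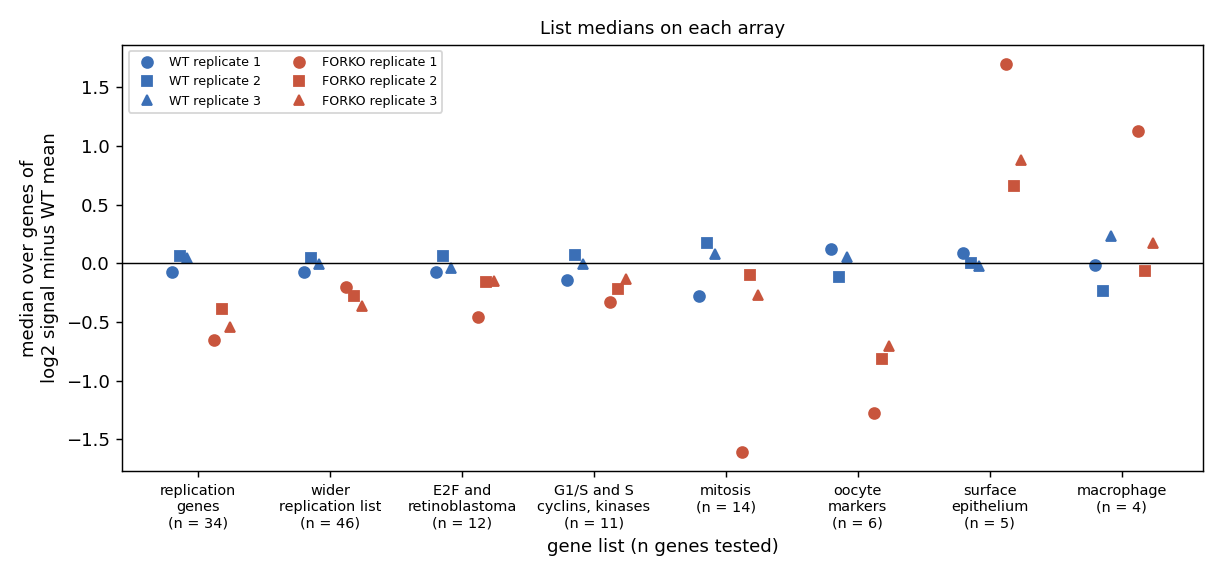
Median over the genes of each list of log2 signal minus the WT mean, for each array, with WT in blue, FORKO in red and the replicate by symbol. The replication genes' FORKO medians lie at -0.65, -0.39 and -0.54, while those of mitosis lie at -1.61, -0.10 and -0.27.

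Markers of ovarian cell types were read on the same arrays. The summed signal of 7 oocyte markers ranged from 869 to 1031 in WT and was 342, 510.0 and 530.0 on FORKO replicates 1, 2 and 3. Bmp15 was below the dim filter, and each of the 6 tested was lower on average. Zp2 and Zar1 passed (limma adjusted p 0.0112 and 0.0368). The sum of 5 surface epithelium markers ranged from 615 to 691 in WT and from 1166 to 1915 in FORKO. Each of the 5 was higher on average, and Krt8 and Krt18 passed (limma adjusted p 0.0155 and 0.0321). For 6 matched granulosa markers, which include Fshr itself and of which Amh read at most 1.16 on any array, the sums were 7924 to 9194 in WT and 5743 to 9899 in FORKO, the lowest being FORKO replicate 1. These markers differed in direction. Amhr2 (0.66) and Foxl2 (0.31) were higher and Inha (-0.62) and Fshr lower in FORKO without overlap. None of them but Fshr passed in the main fit. Amhr2 passed in the paired fit with the replicate block (limma adjusted p = 0.0346). Without FORKO replicate 1 the change of Inha was -0.27. Fst read 1527, 908 and 1171 in WT and 42.0, 1832 and 1766 in FORKO. Its change was -1.14, with overlap, and 0.61 without FORKO replicate 1. For 5 macrophage markers, with Itgam dim, the sums were 1789 to 1916 in WT and 1628 to 3842 in FORKO. Those of 6 lymphocyte markers, of which Cd3e, Cd2, Cd79a and Ms4a1 were dim, were 289 to 382 in WT and 319 to 1302 in FORKO. The highest sums of both were those of FORKO replicate 1. Sums of 4 theca and interstitial markers were 12447 to 13039.5 in WT and 9487 to 10389 in FORKO, with Cyp11a1, Hsd3b1 and Star lower on average and Cyp17a1 higher (0.58, overlapping). Those of 3 luteal markers were 219 to 365 in WT and 60.006, 204.5 and 212 on FORKO replicates 1, 2 and 3. On FORKO replicate 1, Ptgfr read 0.547 and Akr1c18 0.656, while Parm1 read 58.8, above WT replicate 1 (44.4). Smooth muscle (4 markers, Des dim) gave 2179 to 2588 and 1141 to 2667, and endothelium (4, Pecam1 dim) 315 to 394 and 369 to 451. Their part in the members' values was not tested. The tissue label could be read against markers of its cells: the granulosa gene Foxl2, the oocyte gene Zp3 and the steroidogenic gene Cyp11a1 were past the dim filter, while Amh was near 0.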

How the data were processed

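Deposited intensities were MAS5 signals per the submitters' processing notes, linear in scale; the sources used here give neither their scaling target nor detection calls. Arrays were brought to the same 2%-trimmed mean (factors 0.895 to 1.09). The pseudocount was the pooled 25th percentile, 5.73. Besides 64 controls, probe sets whose mean was under 20.4 (the median of means) were dropped. The rest went to limma 3.58.1 in R 4.3.3 (intensity trend, Benjamini-Hochberg over 22506 probe sets, two-sided), after a test on simulated data. Figures used matplotlib 3.10.9.

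Genes were named from probe sets with exactly 1 symbol, and the brightest stood for the gene. Genes of the wider lists without such a probe set were not analysed here. Members and lists were chosen with earlier results of these data known. The spike scaling, the counts at an unadjusted p and without overlap, and the values per gene without FORKO replicate 1 or with the block were added after seeing the data. In each role group up to 3 members with the largest change are given by array.

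Same-numbered arrays deviated together from their group means (correlations 0.195, 0.134 and 0.358), all above 0.1. For that reason the paired fit with the replicate block is given beside the main fit, which is unpaired. Correlations between arrays of different number are not given here, and the labels tie the numbers to nothing. Whether same-numbered arrays were true pairs therefore cannot be told.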

Additional observations from a re-analysis of the deposited data

How the results depend on the processing

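In each of the settings tried (normalization, pseudocount, dim filter, variance model, replicate block, mean of a gene's probe sets, each array left out), 0 members passed limma's adjusted threshold in either direction, except that Gins1 passed without FORKO replicate 1 (0 to 1 lower over the arrays left out). The members' median stayed between -0.61 and -0.36. The paired fit with the replicate block raised the members at an unadjusted p under 0.05 from 17 to 26, and spike scaling lowered them to 7 and those without overlap from 20 to 11. Probe sets passing numbered 372, against 221 without the dim filter, 691 with the block, 589 with spike scaling and 62 to 864 with an array left out. Of the wider list 1 passed, against 0 with spike scaling and 0 to 2 with an array left out. Of regulators and mitosis genes 0 passed, against 1 (Ccne2) with quantile normalization, 1 as deposited, 1 with the same median, 2 with the block (Ccne2 and Bub1) and 0 to 1 with an array left out. Signs turned for Pole without WT replicate 2 (0.094) or 3 (0.0055; range -0.29 to 0.094 over the arrays left out) and with spike scaling (0.080), and for Prim2 without WT replicate 3 (0.021) or FORKO replicate 1 (0.035; range -0.36 to 0.035). Of the cell type markers, Amhr2, Star and Tagln passed with the block (limma adjusted p 0.0346, 0.0418 and 0.0361) but not in the main fit. The block changed no count of passing members or wider-list genes, and no call for Fshr, Ctps or the members. The causes were not tested.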
